A study of Caenorhabditis elegans with 4 samples.

Results

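The sites described here are the places where a FLAG antibody enriched DNA over input in chromatin of Caenorhabditis elegans. They come from 1 immunoprecipitation (IP) library made with the FLAG antibody, set against 1 input DNA library. All peaks that the authors deposited for that library were taken, and lines of the list that share a chromosome, a start and an end were joined into 1 site. The 1301 lines gave 875 sites, out of 2121 sites in the 3 peak lists of the study. The summit with the highest pileup stands for each site.

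The study was done on whole animals of the Bristol strain that had been synchronised by bleaching and grown to the L4 larval stage on NA22 bacteria, and the protein studied was LAG-1. Its other libraries are 2 IPs with a GFP antibody, called GFP 2 and GFP 3 here, and the same input served all 3 IPs. The allele that carries the FLAG or GFP tag, its promoter and its genotype are not given in the sources used here. Whole animals mix all tissues, so strong binding in a few cells and weak binding in many cells cannot be told apart.

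LAG-1 is the worm's member of the CSL family of DNA-binding proteins, the nuclear end point of the Notch pathway. When a ligand such as LAG-2 engages the receptors LIN-12 or GLP-1, the receptor is cut and its intracellular part enters the nucleus. There it joins LAG-1 and the Mastermind-like protein SEL-8, and the complex turns on target genes. In the worm this signal keeps germline stem cells dividing through GLP-1 and decides cell fates in the gonad and vulva through LIN-12.

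After removal of duplicates the FLAG library kept 12186235 of its 14317856 tags, and the input kept 20457188 of 24598804. The pileup of a site is the number of tags over its summit, each tag extended by the caller to 53 bp. With 1 tag kept per position and strand, the pileup cannot exceed 106 tags, and 106 was also the highest pileup in the list. The background is the number of tags expected there from the input. No value in the list was below the genome-wide mean of 7.18 tags, so a site given that mean may have less input locally, and the highest possible fold at that background was 13.1. Fold enrichment is the pileup plus 1 over the background plus 1, as the authors' caller gave it. With 1 FLAG library there is no replicate check and no test over samples, differences between groups of sites were not tested, and all intervals below are 95% intervals of counting error over sites that are not independent of each other.

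The FLAG sites were of 2 kinds that hardly met. At 649 sites the background was at most 3 times its genome-wide mean, called low background below, and at 226 sites (25.8%) it was over 3 times that mean, called raised background. The distribution had little in between: 327 sites were within 2% of the mean, 263 were further above it but at most 1.5 times, 59 between 1.5 and 3 times, 16 between 3 and 6 times, and 210 above 6 times. The median fold was 3.18 in low background (range 2.06 to 11.3) and 1.66 in raised background (range 1.49 to 2.91). The median pileup went the other way, with 28 tags in low background and 100 tags in raised background.

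**Figure D1:**
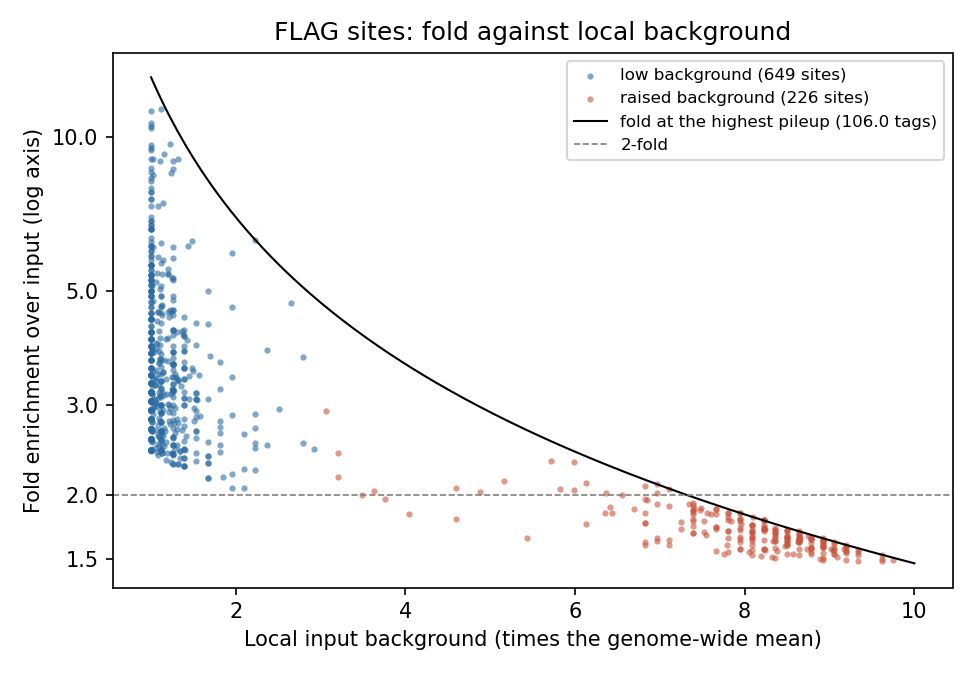
Each point is 1 of the 875 FLAG sites, with the local input background in multiples of its genome-wide mean on the x axis and fold enrichment over input on a log y axis. The 649 low-background sites spread from 2.06-fold to 11.3-fold, while the 226 raised-background sites mostly lie under the dashed 2-fold line. The black line marks the highest possible pileup of 106 tags, and 207 of the 226 have 80% or more of that pileup.

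The design text sets 2-fold over input as the limit for a peak, and 666 of the 875 sites (76.1%) were above it. These were all 649 low-background sites and 17 raised-background sites. The 209 sites at 2-fold or less were all in raised background. This split follows in part from the caller's q-value limit, which sets a lowest fold that can be listed. Among sites with a background within 2% of the mean, the lowest pileup was 19 tags and the lowest fold 2.44. A site at 2-fold or less could hardly be listed near that background. At 183 of the 226 raised-background sites (81.0%) the background was so high that even the ceiling of 106 tags would give 2-fold or less. The pileup was at 80% or more of that ceiling in 207 of the 226, against 12 of the 649 low-background sites. The 5 sites just above the limit ran from 2.01-fold to 2.05-fold and the 5 just under it from 1.95-fold to exactly 2.0-fold, and all 10 had a raised background.

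The strongest site was on chromosome I from 10587961 to 10588649 (ce10 coordinates, as are all positions here). Its pileup was 101 tags against a background of 8.0 tags, a fold of 11.3. The next was on chromosome I from 7656749 to 7657837, where 91 tags stood over 7.18, a fold of 11.3 as well, with 5 summits over 1089 bp. On chromosome III, the site from 1881074 to 1881155 had 86 tags over 7.18, a fold of 10.6, within 82 bp. These 3 sites had nearly equal folds and widths that differed by more than 10 times.

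The site on chromosome V from 15133741 to 15134242 reached 10.5-fold, with 85 tags. The one on X from 1503769 to 1504578 reached 10.4-fold, with 84 tags. The other 5 of the 10 highest folds were on III from 9793464 to 9794147 (9.70) and from 6344564 to 6345108 (9.66), and on I from 7079430 to 7080392 (9.54), from 2179885 to 2179967 (9.42) and from 765678 to 765980 (9.28). All 10 lay in low background, between 7.18 and 8.80 tags, and no site of chromosomes II or IV was among them. The highest fold on II was 8.49, at 878221 to 878317, and on IV it was 9.07, at 4468107 to 4468884, a site with 6 summits.

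Sites were narrow. The median width over all 875 was 109 bp (interval 103 to 114, quartiles 70 and 195.5), and it was close to the same in low background (110 bp) and in raised background (106.5 bp). The narrowest possible site is the 53 bp of 1 extended tag, and 38 sites had that width. Together the sites covered 154639 bp, of which 120013 bp were in low background.

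Most sites had 1 summit. Several summits were listed in 244 sites (27.9%, Wilson interval 25.02 to 30.9), with a near equal share in low background (28.4%) and in raised background (26.5%). There were 153 sites with 2 summits, 57 with 3 and 34 with more, up to 13. Wider sites hold more summits, since the caller splits a site where the pileup dips. In low background the median width was 82 bp with 1 summit, 224.5 bp with 2, 378 bp with 3 and 693 bp with 4 or more.

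Neighbouring summits within a site were close, with a median of 105 bp between them (quartiles 82 and 146, 426 pairs). The pileup at the second highest summit of a low-background site was 84.5% of that at the highest (median of 184 sites, quartiles 72.0 and 92.9). In raised background it was 96.9%, where most pileups were near the ceiling of 106 tags and could differ little. In single-summit sites of low background the summit sat a median of 11.5 bp from the middle of the site.

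**Figure D2:**
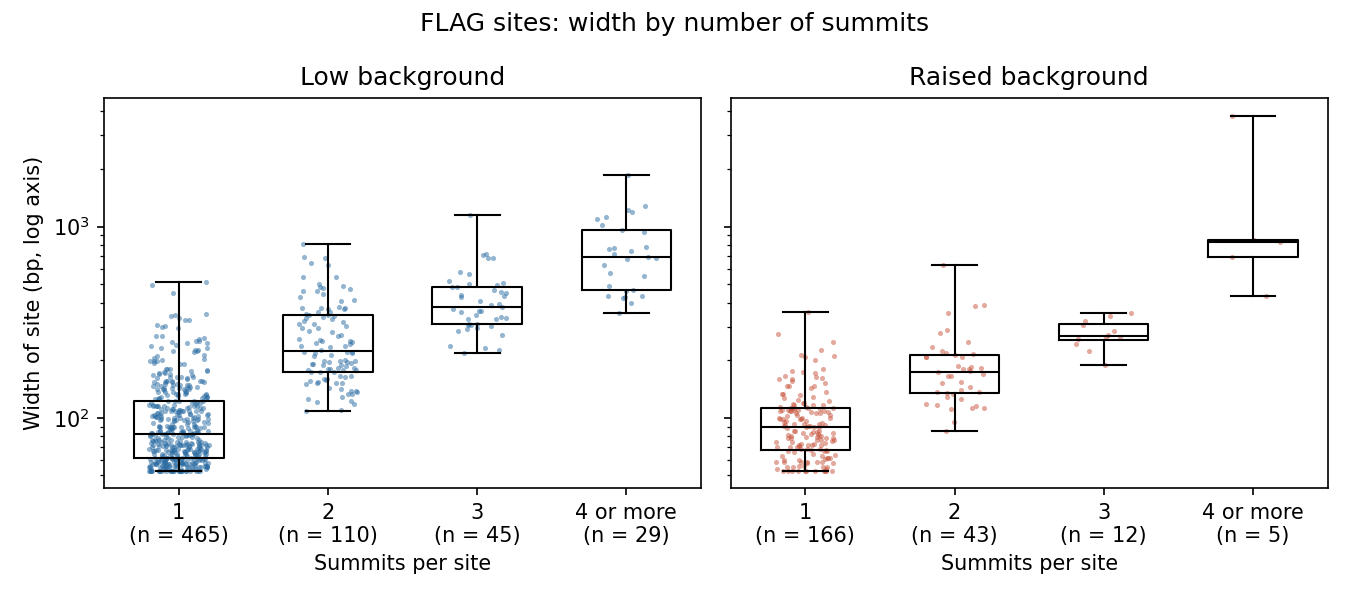
Width of each FLAG site in bp on a log axis, by the number of summits in the site, for low background (left) and raised background (right). Boxes show quartiles and medians, whiskers the full range and points the sites. The median width in low background is 82 bp with 1 summit and 693 bp with 4 or more.

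The sites with most summits were long stretches in low background. The one on X from 16930046 to 16931901 had 13 summits over 1856 bp, with a top pileup of 86 tags over 9.04 (8.66-fold). On chromosome V, the site from 6277159 to 6278434 had 9 summits and 53 tags over 7.18 (6.60-fold). Of the 29 low-background sites with 4 or more summits, 12 were on V, and 15 of the 29 were above 5-fold. Of all 649 low-background sites, 118 (18.2%) were on V and 98 were above 5-fold. Some of the 12 on V are neighbours of each other, so they are not 12 separate places.

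Other sites of 9 summits were on V from 726155 to 727377 with 2.53-fold, on II from 10543097 to 10544213 with 4.89-fold, and again on V from 9342542 to 9343554 with 6.21-fold. The first of these is the last of 3 neighbouring sites that carry 21 summits between 723981 and 727377. The middle site of the 3, from 724906 to 726091, had 8 summits and was among the 5 widest of the list. The widest of all, 3797 bp on chromosome I from 15064157 to 15067953, was of the other kind, with 105 tags over a background of 62.8 and a fold of 1.66.

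Strong low-background sites came in 2 shapes. Above 5-fold there were 98 such sites, of which 43 were 57 to 144 bp wide and 55 were 219 to 1856 bp wide. No site of this strength had a width between 150 and 200 bp. The limit of 150 bp between narrow and wide was chosen after this gap had been seen. Their folds were alike, with a median of 5.99 in the narrow sites (range 5.01 to 10.6) and 6.21 in the wide ones (range 5.01 to 11.3). Only 2 of the 43 narrow sites had several summits, against 47 of the 55 wide ones.

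The narrow strong sites were also isolated. The median distance from a narrow strong site to the nearest other FLAG site was 62787 bp, against 16189 bp for a wide one, and 1 of 43 against 12 of 55 had another site within 1000 bp. Of the narrow ones, 14 were on X, 10 on IV, 7 on II, 6 on III, 4 on I and 2 on V. Of the 55 wide ones, 12 were on V, 11 on IV, 10 on I, 9 on X, 7 on III and 6 on II. Of all 649 low-background sites, X held 97 (14.9%) and V held 118 (18.2%), and differences from these shares were not tested. The 3 strongest narrow sites were those on III at 1881074, on I at 2179885 and on II at 878221, all given above, and the fourth was on III from 8514583 to 8514665 with 67 tags over 7.18 (8.32-fold).

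**Figure D3:**
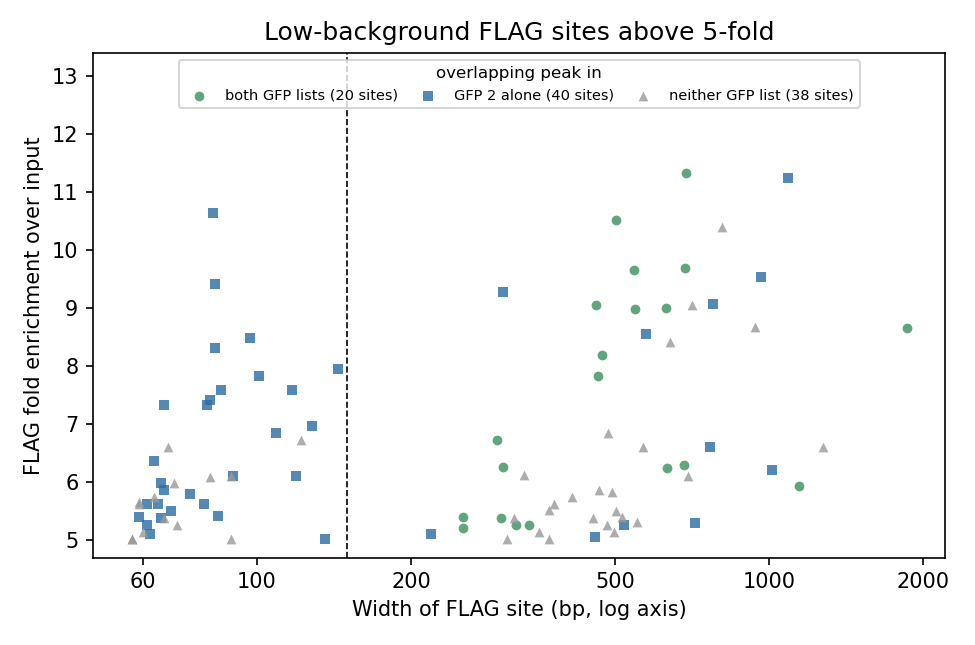
The 98 low-background FLAG sites above 5-fold, with width in bp on a log x axis and FLAG fold enrichment on the y axis. Colour and marker show which GFP list has an overlapping peak. The 43 sites to the left of the dashed line at 150 bp include 0 found in GFP 3, and the 55 to its right include 20. Among all 405 low-background sites under 150 bp, GFP 3 held 20.

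The GFP lists served as an outside check of the FLAG sites. They were called in other libraries with another antibody, but against the same input, so part of any overlap may come from it, which was not tested. An overlap of at least 1 bp with any deposited GFP peak counted. Of the 875 FLAG sites, 432 (49.4%, interval 46.1 to 52.7) overlapped the 847 sites of GFP 2 and 268 (30.6%, interval 27.7 to 33.8) overlapped the 399 sites of GFP 3. In neither list were 433 FLAG sites.

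The check was then read for each kind of background. Of the 226 raised-background FLAG sites, 197 (87.2%) were in GFP 2 and 201 (88.9%) in GFP 3. Neighbouring FLAG sites can meet the same GFP peak, which is then counted at each of them. On I from 15061947 to 15067953, for example, they met a single GFP 2 peak of 6331 bp. These shares are thus not shares of separate matches. Of the 649 low-background sites, 235 (36.2%, interval 32.6 to 39.98) were in GFP 2 and 67 (10.3%, interval 8.21 to 12.9) in GFP 3, and every one of the 67 was also in GFP 2. The GFP 3 list has 76 low-background sites of its own. Left over were 414 low-background FLAG sites in neither GFP list, with a median FLAG fold of 3.11, against 3.19 for the 168 found in GFP 2 alone and 3.67 for the 67 found in both.

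Among low-background sites, the share found in GFP 2 was 30.2% in the lowest quartile of FLAG fold, 33.1% and 34.2% in the next ones and 47.5% in the highest, which starts at 4.09-fold. The shares found in GFP 3 were 4.65%, 8.12%, 13.5% and 15.4%. The intervals of neighbouring quartiles overlapped. In both lists the share was higher in the highest quartile than in the lowest, and 85 of the 162 sites of the highest quartile were in neither. The median width of the FLAG sites also rose over the 4 quartiles, from 78 bp to 108.5, 169 and 220.5 bp. A wider site can meet a peak by 1 bp more easily, so fold and width are not separated here, and their parts were not tested.

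**Figure D4:**
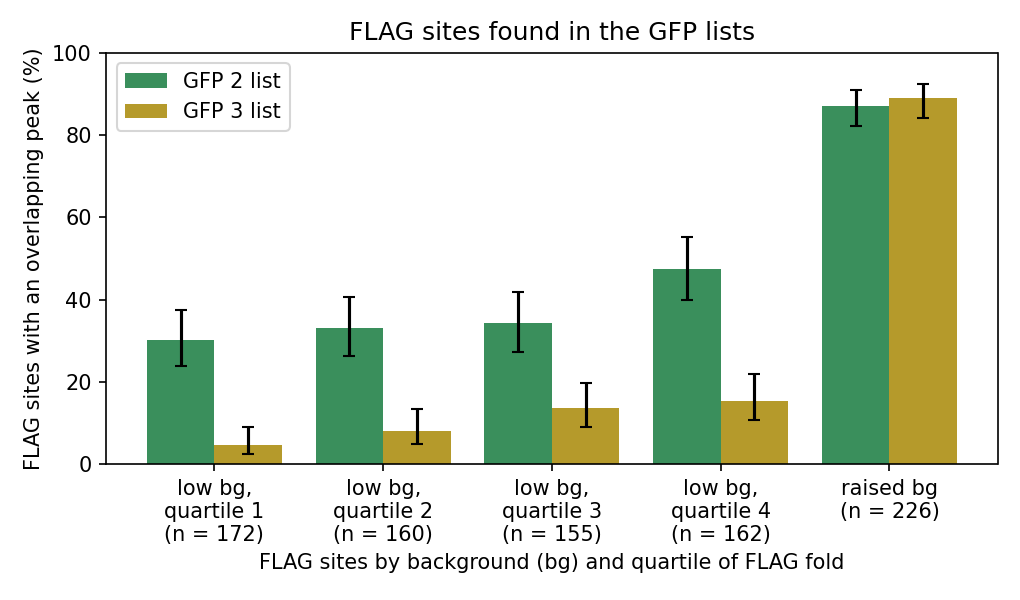
Share of FLAG sites with an overlapping peak in the GFP 2 and GFP 3 lists, in percent, for the 4 quartiles of FLAG fold in low background and for raised background, with 95% Wilson intervals as error bars. The GFP 2 share is 30.2% in the lowest quartile, 47.5% in the highest and 87.2% in raised background. Neighbouring FLAG sites, most of all in raised background, can share a GFP peak, so the intervals there are too narrow.

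The narrow and the wide strong sites were checked in the same way. GFP 2 held 29 of the 43 narrow ones (67.4%, interval 52.5 to 79.5) and 31 of the 55 wide ones (56.4%, interval 43.3 to 68.6). GFP 3 held 20 of the 55 wide ones (36.4%, interval 24.9 to 49.6) and 0 of the 43 narrow ones. A limit of 3 counts, used here for a count of 0 in place of the Wilson interval, allows a share of up to 6.98% there. Narrow sites of any fold were found in GFP 3: it held 20 of all 405 low-background FLAG sites under 150 bp (4.94%). That share is below the limit of 6.98%, so the count of 0 does not set the strong narrow sites apart from other narrow ones. The wide strong sites had a median width of 502 bp, against 74 bp for the narrow strong ones. They can meet a peak by 1 bp more easily, and the part of width was not tested. The GFP 2 peak at a narrow FLAG site was itself under 150 bp wide in 28 of 29 cases, and its nearest summit lay within 10 bp of the FLAG summit in 28 of 29. Side by side, the median folds at these 29 were 6.12 in FLAG and 5.17 in GFP 2. At the 31 wide sites they were 6.73 and 8.45. These folds are not on one scale, since the highest possible fold at the genome-wide mean was 13.1 in FLAG and 21.6 in GFP 2. The sites were also chosen by their FLAG fold, and where several GFP 2 peaks overlapped a site, the highest fold was taken.

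Single sites show how the lists line up. At the strongest site, on I at 10587961, GFP 2 had 18.8-fold and GFP 3 had 15.5-fold, with peaks of 884 and 638 bp. The nearest summits of these peaks lay 7 and 3 bp from the FLAG summit. At the narrow site on III at 1881074, GFP 2 had 8.57-fold in a peak of 79 bp, and GFP 3 had no peak. The nearest GFP 2 summit there lay 2 bp from the FLAG summit. The wide site on I at 7656749, second in FLAG, overlapped 2 GFP 2 peaks and none of GFP 3. The GFP 2 peak of highest fold there had 3.51-fold in 65 bp. The nearest summit of either GFP 2 peak lay 295 bp from the FLAG summit. Of the 10 highest FLAG folds, 4 were in both GFP lists, 5 in GFP 2 alone and 1, on X at 1503769, in neither.

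The 5 strongest FLAG sites with no GFP peak were wide. They are the site on X at 1503769 and those on X from 4147334 to 4148040 (73 tags over 7.18) and from 17419791 to 17420727 (70 over 7.18), on II from 8746936 to 8747576 (69 over 7.31) and on III from 6415545 to 6416029 (55 over 7.18). Their widths ran from 485 to 937 bp and each had at least 2 summits. As there is 1 FLAG library, and the sources used here do not say whether the FLAG and GFP tags were in the same strain, what belongs to the antibody, the tagged allele or the library cannot be told apart.

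FLAG sites lay on all 6 chromosomes. To set counts against length, the span from the first to the last base of any deposited peak was used for each chromosome, 100.2 Mb in all. Low-background sites had a density of 6.69 per Mb on the autosomes (Poisson interval 6.15 to 7.28) and 5.47 per Mb on X (interval 4.44 to 6.68). Chromosome III was the densest, with 117 sites or 8.49 per Mb (interval 7.02 to 10.2), and V and II had 5.64 and 5.78 per Mb. The interval of III overlaps those of I (5.59 to 8.30), II (4.64 to 7.12) and IV, which had 7.20 per Mb. It lies above those of V (4.67 to 6.75) and X. Chromosome III was picked as the densest of the 6, and neighbouring sites were counted singly, so these intervals are too narrow. Whether III differs from the other chromosomes was not tested.

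Raised-background sites had another order, with 3.56 per Mb on X and 1.05 per Mb on II. X held 63 of the 226 raised sites (27.9%) and 97 of the 649 low ones (14.9%). These 63 sites lay in 12 runs, chains of sites with gaps of at most 1000 bp, and 4 of the runs held 49 of them. Counted by runs with a raised-background site, the order turned: X had 0.677 runs per Mb, below IV (0.972), I (0.864), V (0.860) and III (0.798), and above II (0.460).

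**Figure D5:**
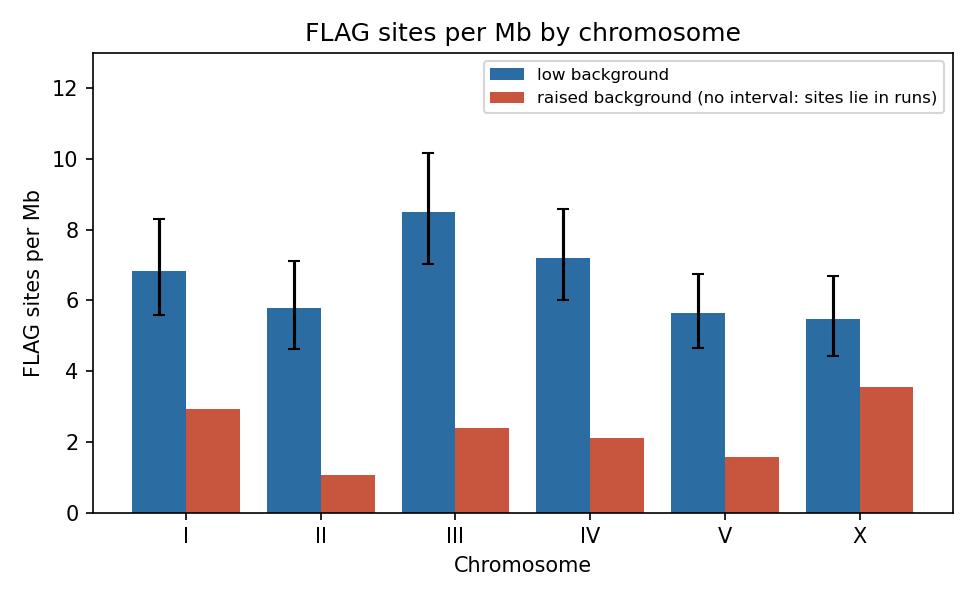
FLAG sites per Mb of each chromosome's span, for low background (with 95% Poisson intervals) and raised background. Low-background density is highest on III (8.49 per Mb), and raised-background density is highest on X (3.56 per Mb) when neighbouring sites of a run are counted singly, but not when counted by runs (0.677 per Mb).

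Low-background sites were most frequent in the middle of the autosomes. In C. elegans the centres of the autosomes hold more genes per length and the arms more repeats, a contrast that is weaker on X. With each span cut into 3 equal parts, the middle part held 239 of the 552 autosomal low-background sites (43.3%, Wilson interval 39.2 to 47.5), against 28.3% and 28.4% in the outer parts. On X the middle held 26 of 97 (26.8%, interval 19.0 to 36.4), the left part 28 (28.9%) and the right part 43 (44.3%, interval 34.8 to 54.2). On each autosome but I the middle held the most or shared the highest count: 38 of 88 on II, 53 of 117 on III, 55 of 126 on IV and 58 of 118 on V, and on I it held 35 of 103.

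The check against the GFP lists was also read by chromosome. In low background, GFP 2 held 54 of the 97 sites on X (55.7%, interval 45.8 to 65.2) and 181 of the 552 on autosomes (32.8%, interval 29.004 to 36.8). On single autosomes the share ran from 30.5% on V to 42.05% on II. GFP 3 held 18 of 97 on X (18.6%) and 49 of 552 on autosomes (8.88%). The median FLAG fold was 3.30 on X and 3.18 on autosomes, and the upper quartile was 4.55 and 4.03. X held 33 of the 162 sites in the highest quartile of fold (20.4%). Fold and chromosome are not separated here, and their parts were not tested.

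Raised-background sites were crowded. Over all sites, 329 of 875 (37.6%) had another FLAG site within 1000 bp. In raised background it was 180 of 226 (79.6%), with a median distance of 120 bp to the next site, and in low background 149 of 649 (22.96%), with a median distance of 25442 bp. Sites chained by gaps of at most 1000 bp formed 637 runs, 546 of them of 1 site. Runs that held a raised-background site numbered 78 and took in 228 sites.

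The run with most sites was on X from 109596 to 114236, where 20 raised-background sites lay in 4641 bp with a median fold of 1.69, and GFP 2 had a peak at all 20. The next by sites, and the longest at 11891 bp, held 17 raised-background sites on chromosome I from 15060320 to 15072210. It had a median background of 8.74 times the mean, and it ended close to 15072214, where the deposited peaks of chromosome I stop. The right end of chromosome I is known to carry the array of ribosomal RNA genes. The run was not matched to that array, because no ce10 annotation was used here.

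The site of highest background was on II from 8290005 to 8290359, with 105 tags in FLAG over 70.0 expected from input (1.49-fold). The other 4 of highest background were on X at 15809513 and 11785719, on IV at 14779988 and on I at 15069224, with 100 to 106 tags over 67.0 to 69.0. All 5 had a peak in both GFP lists.

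Only 4 runs of low-background sites had 5 sites or more. On V from 9340564 to 9344444, 7 sites with 21 summits reached 6.21-fold at most, and 3 of the 7 had a GFP 2 peak. On I from 7656749 to 7659028 there were 6 sites, led by the second strongest of the list, and on IV from 11323590 to 11326454 there were 6 sites of up to 3.44-fold. On IV from 6095201 to 6098498 there were 5 sites, all found in GFP 2 and 2 of them in GFP 3. GFP 3 had no peak at any site of the other 3 runs.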

How the data were processed

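ChIP-seq peak lists of 3 IP libraries were read, and the FLAG list was described. Each IP was called on its own against 1 input by the authors with MACS 2.1.0.20140616, per the file headers, with a q-value of 0.05 as the limit, summits split, 1 tag kept per position and the larger library sampled down to the smaller. The deposited pileup is a signal in tags, the deposited fold enrichment is a ratio, and significance was deposited as −log10 of the p-value and q-value. Positions are in ce10, per the submitters' processing notes. The aligner is not given in these sources. The caller's fragment length of 53 bp is close to the 49 bp tag, and widths, pileups and folds rest on it.

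Lines were reduced to 1 per site by the highest pileup. Background was recovered from fold and pileup. Poisson p-values computed with it came within 6.04e-05 of the −log10 p-values deposited for FLAG. Shares carry Wilson intervals. No test was run. Sites named are the 10 highest folds, the highest of each chromosome, the 5 with most summits, widest, of highest background, of highest fold without a GFP peak, and nearest 2-fold on each side; runs and narrow sites were chosen after their values were seen. The members and lists were chosen with earlier results of these data known. The functions were tested on simulated data. No ce10 genome or annotation was used here, so sites carry no gene names or sequences; the gene table at hand is of WBcel235, and was not used for positions. The tools were Python 3.11.15 with pandas 2.3.3, numpy 2.4.6, matplotlib 3.10.9 and scipy 1.17.1.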

Additional observations from a re-analysis of the deposited data

How the results depend on the processing

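Of 42 alternatives, 12 stayed within the counting interval of the reported value (or within 1.5 times a count) and 30 moved. Sites past 2-fold (666) numbered 384 above 3-fold, 176 above 4-fold, 326 at −log10 q above 5 and 163 above 10. Raised-background sites (226) fell to 17 above 2-fold. The share found in GFP 2 (49.4%) was 45.8% with overlap of at least 50% of the site and 41.6% with summits within 50 bp. With the limit set in both lists, it was 36.8% above 2-fold, 37.5% above 3-fold and 40.0% at −log10 q above 5. Without raised-background FLAG sites it was 36.2%. In the same order, the share in GFP 3 (30.6%) was 26.9%, 26.1%, 11.4%, 12.5%, 15.7% and 10.3%. The share in either GFP list (50.5%) was 36.8% with fold above 2 in all lists and 36.2% without raised background. With 1 GFP library left out it was 30.6% to 49.4%, and without GFP 2 it was the lower value. Median width (109 bp) was 153 bp above 3-fold and 160 bp at −log10 q above 5, and the share with several summits (27.9%) was 40.4% and 42.3%. The share on X (18.3%) was 14.9% above 2-fold and also 14.9% without raised background. The share within 1000 bp of another site (37.6%) was 23.3% above 2-fold, 6.25% above 3-fold, 22.7% when raised sites were left out before measuring distance, and 9.86% at −log10 q above 5. With the highest-fold summit standing for a site, 671 passed 2-fold. Without raised background, an alternative added after seeing the data, 649 did. No paired analysis was possible, because the FLAG label carries no replicate number that would tie that library to a GFP library. One library and 1 input set the precision of every value.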

Other observations

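The split of strong low-background sites by width was looked at under other limits, all chosen after seeing the data. Under each of them a wider site can meet a GFP peak by 1 bp more easily. Above 6-fold, 20 FLAG sites were under 150 bp wide and 30 were wider, and GFP 3 held 0 and 14 of them. Above 4-fold the numbers were 85 and 91, of which GFP 3 held 1 and 26. With the width limit at 100 bp and the fold limit at 5, GFP 3 held 0 of 35 narrow sites and 20 of 63 wider ones. The share found in GFP 2 kept no such order: above 4-fold it was 42.4% of the narrow and 48.4% of the wider sites, and above 6-fold it was 16 of 20 and 21 of 30.

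Narrow strong sites were present in the other lists to unlike degrees. Of the low-background sites above 5-fold, those under 150 bp wide made up 43 of 98 for FLAG, 20 of 98 for GFP 2 and 1 of 21 for GFP 3. The folds of the lists have different ceilings, so these counts are given side by side only.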
